A study of Homo sapiens with 6 samples.

Results

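The genes that encode the proteins of the cytosolic ribosome were compared between wild-type (WT) and PARP3-/- LN229 cells, a human glioblastoma cell line that grows in culture. Members were chosen by name and not by any measured value: every protein-coding gene called RPL or RPS with a number, an optional letter and the paralog endings of the nomenclature, together with RPLP0, RPLP1, RPLP2 and RPSA. The rule found 86 of the 33841 genes listed, of which 34 encode proteins of the small subunit and 52 proteins of the large subunit. Total RNA depleted of ribosomal RNA was sequenced from 3 biological replicates of each genotype, giving 6 libraries.

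The WT libraries came from the parental cells, labelled WT-PARP3+/+. The PARP3-/- libraries came from cells in which PARP3, a DNA-damage-responsive ADP-ribosyltransferase, had been disrupted with a Cas9 nickase and guides against exons 2 and 5, while the series description places the disruption between exons 2 and 9. All cells grew in the same serum-supplemented medium without any treatment. PARP3-/- cells were expanded from sorted single cells, and 2 such LN229 clones are described in the methods without stating which was sequenced. A difference between the genotypes can therefore not be told apart from a difference between a clone and its parental population, and the p-values measure the spread between cultures, not between clones.

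Each ribosome is built from a small (40S) subunit, which decodes the messenger RNA, and a large (60S) subunit, which joins amino acids. Most ribosomal proteins are present once in each particle, and the cell produces them in matched amounts, so that an unpaired protein is usually degraded. Their mRNAs belong to the TOP class. These mRNAs begin with a C followed by an uninterrupted run of pyrimidines, the 5′ terminal oligopyrimidine tract, through which mTOR and LARP1 govern translation. Human ribosomal protein genes have also left many processed pseudogenes in the genome, which matters for the counting of short reads.

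The starts of 11 members are shown first, because the results below turn on these genes and because they show starts with and without a TOP tract. The windows run from 60 bases before the listed start to 20 bases from it (RefSeq, GRCh38.p14), 5′ to 3′. Capitals mark the tract, defined as a C at the start base and at least 5 consecutive pyrimidines. The 6 windows below come from chromosome 3 and carry it, whereas RPL15 and RPL32, the other tested members of that chromosome, had no tract at any listed start. RPL29 lies at chr3:51995876-51995955 on the minus strand, RPL24 at chr3:101686699-101686778 on the minus strand and RPSA at chr3:39406660-39406739 on the plus strand. RPL14 lies at chr3:40457279-40457358 on the plus strand, RPL35A at chr3:197950130-197950209 on the plus strand and RPL22L1 at chr3:170870176-170870255 on the minus strand.
RPL29: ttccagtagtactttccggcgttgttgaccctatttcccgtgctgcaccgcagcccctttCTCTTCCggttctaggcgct
RPL24: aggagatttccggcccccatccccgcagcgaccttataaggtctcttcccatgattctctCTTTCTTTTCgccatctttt
RPSA: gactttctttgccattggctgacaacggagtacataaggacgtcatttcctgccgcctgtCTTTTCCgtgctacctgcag
RPL14: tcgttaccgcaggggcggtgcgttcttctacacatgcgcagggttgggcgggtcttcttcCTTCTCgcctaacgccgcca
RPL35A: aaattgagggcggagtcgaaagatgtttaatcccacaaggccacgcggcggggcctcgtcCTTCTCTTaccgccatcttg
RPL22L1: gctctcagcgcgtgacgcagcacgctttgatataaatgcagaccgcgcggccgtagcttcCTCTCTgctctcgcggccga

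Of the next 5 windows only RPLP1 carries the tract. RPS7 lies at chr2:3575200-3575279 on the plus strand, RPL26L1 at chr5:172958669-172958748 on the plus strand and RPL7L1 at chr6:42879556-42879635 on the plus strand. RPS27L lies at chr15:63157458-63157537 on the minus strand and RPLP1 at chr15:69452758-69452837 on the plus strand. RPS7 starts with a C and a pyrimidine run shorter than the limit. A start listed a few bases away would change such a call.
RPS7: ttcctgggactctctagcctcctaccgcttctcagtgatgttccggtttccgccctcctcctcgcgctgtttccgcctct
RPL26L1: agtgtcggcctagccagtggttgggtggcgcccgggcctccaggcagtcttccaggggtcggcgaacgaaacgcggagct
RPL7L1: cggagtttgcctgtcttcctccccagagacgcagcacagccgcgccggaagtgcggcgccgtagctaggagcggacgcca
RPS27L: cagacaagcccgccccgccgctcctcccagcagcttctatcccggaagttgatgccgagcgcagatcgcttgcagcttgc
RPLP1: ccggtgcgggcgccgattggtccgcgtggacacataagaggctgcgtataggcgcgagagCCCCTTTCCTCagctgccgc

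A RefSeq start was found for 69 of the 86 members, and 48 of these (69.6%) had the tract at a listed start, against 5.14% of all genes in the same table. In the 300 bases around the start (250 before and 50 from it), the motif CGGAAG, searched on both strands, occurred in 63.8% of the members and 22.6% of all genes. AAGATGGC occurred in 10.1% against 3.52% and TATAAA in 10.1% against 14.0%. These are matches of letters, and none of the 3 motifs contains another. The median difference between the genotypes was -0.08 on the log2 scale both over the 47 tested members with the tract and over the 19 tested members with a listed start but no tract.

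Gene counts per library ranged from 29692065 to 46010369. PARP3 itself was counted 1273, 942 and 995 times in WT replicates 1 to 3 and 574, 1004 and 736 times in the PARP3-/- replicates. As CPM, counts per 1000000 scaled for library depth, the lowest WT library (22.4 CPM) and the highest PARP3-/- library (22.5 CPM) overlapped, so the mRNA level did not separate the genotypes. The log2 fold change was -0.42 ± 0.18 SE with genotype as the only term (edgeR adjusted p = 0.307). With the replicate number as a block it was -0.39 ± 0.13 and passed the threshold of 0.05 (edgeR adjusted p = 0.0469). It did not pass in DESeq2, without the block (DESeq2 adjusted p = 0.320) or with it (DESeq2 adjusted p = 0.420). Of the markers checked, VIM (3760 CPM in WT and 4129 in PARP3-/-) and NES (927 and 895) were abundant, GFAP was near 0 (0.253 and 0.125), and the leukocyte, endothelial and epithelial markers listed stayed at or below 0.528 CPM. The glial marker S100B fell, from 194 ± 44.3 to 93.1 ± 13.8 CPM (SD, n = 3 each; log2 fold change -1.06, edgeR adjusted p = 0.0256). With the block 4 of the 7 tested glioma and glial markers were lower and 0 higher, against 12.5% and 11.8% of all tested genes. The 4 were S100B, OLIG2 (-0.52), SOX2 (-0.32) and CD44 (-0.25). The part of such a difference between the cultures in the results on ribosomal protein genes was not tested.

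Ribosomal protein genes took 4.40%, 3.63% and 3.65% of the gene counts in WT replicates 1, 2 and 3, and 3.81%, 3.62% and 3.59% in the PARP3-/- replicates. The means were 3.89% ± 0.436 in WT and 3.67% ± 0.118 in PARP3-/- (SD, n = 3 each). The groups overlapped, and WT replicate 1 alone stood high. In bulk RNA fewer expressing cells and less RNA per cell cannot be told apart. In that library 73 of the 81 members that passed the filter on low counts lay above the WT mean of the gene, with a median deviation of 0.14 on the log2 scale. WT replicates 2 and 3 held 15 and 9 members above the mean, and the PARP3-/- replicates 41, 47 and 26. Over all 17144 tested genes the median deviation of no library exceeded 0.01. The scaling by itself keeps this median small, so it is no independent background. The deviations of a gene cancel out within a genotype, so the low numbers in WT replicates 2 and 3 are tied to the high replicate 1. In 71 of the 81 tested members WT replicate 1 was the highest WT library, and in 20 of them it was more than 1.2-fold above both others.

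**Figure D1:**
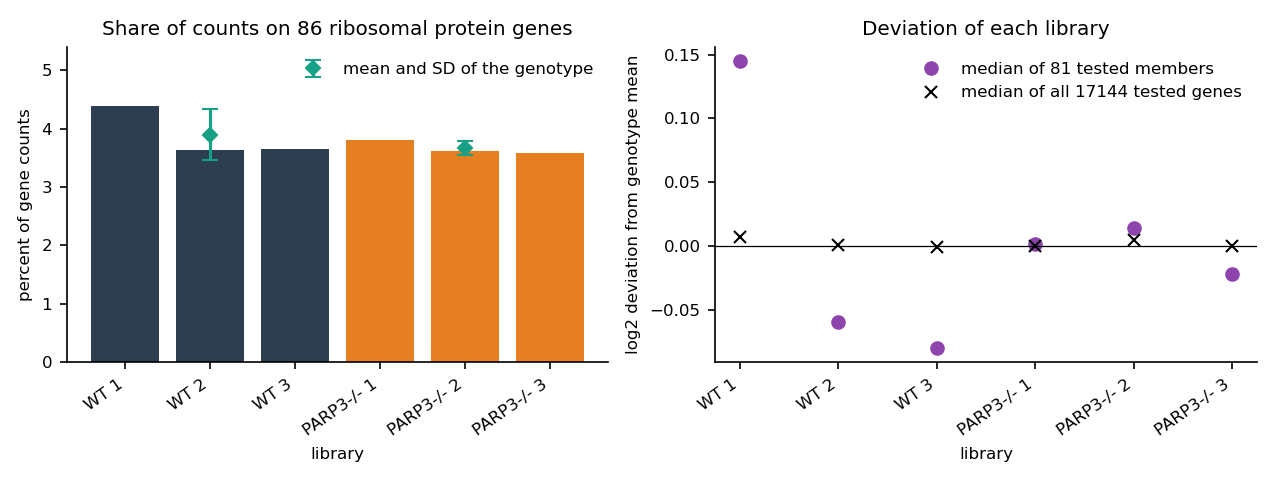
Ribosomal protein genes in each of the 6 libraries. Left, the share of gene counts on the 86 members in percent, one bar per library, with the mean and SD of each genotype (n = 3). Right, the median log2 deviation of the 81 tested members from the mean of their genotype, beside the same median over all 17144 tested genes. WT replicate 1 stands at 4.40% and at 0.14, above every other library in both panels.

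Of the 86 members, 81 had enough reads to be tested, 32 of the small and 49 of the large subunit. The other 5 were paralogs of standard members, RPL3L, RPL10L, RPL39L and the Y-linked RPS4Y1 and RPS4Y2. RPL3L, a muscle form of RPL3, had 2 to 5 counts in the WT libraries and 2 to 4 in the PARP3-/- libraries. RPL10L, a testis form of RPL10, had 0 to 2 and 0 to 1. RPL39L, best known from testis and tumours, had 1 to 5 and 0 to 2. At these counts no difference was detectable.

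With genotype as the only term, no member passed an edgeR adjusted p of 0.05 in either direction (3.33% of all tested genes passed as lower in PARP3-/- and 1.36% as higher). At an unadjusted p under 0.05, 10 members were lower and 0 higher, where 9.03% and 7.23% of all tested genes were. The fold changes were small. All 81 lay within 0.5 of 0 on the log2 scale and 68 within 0.2, between -0.45 for RPL26L1 and 0.17 for RPLP1, with standard errors from 0.07 to 0.29 (median 0.10). The median was -0.08, against -0.01 over all tested genes, and 64 members (79.0%) had a negative fold change, against 51.3% of all tested genes. This median rested on WT replicate 1, without which it was -0.015, while leaving out any other library gave -0.12 to -0.07. With the replicate number as a block, 60 were negative, against 50.5%. Small subunit members had a median of -0.06 and large subunit members of -0.08.

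The replicate numbers, which come from the sample titles, were taken to pair the samples. With the replicate number as a block, 12 members (14.8%) were lower in PARP3-/- and 0 higher at an edgeR adjusted p of 0.05. In the same fit 12.5% of all tested genes were lower and 11.8% higher, so the number of lower members was close to that background and is no result about the members by itself. DESeq2 called 2 members lower, RPL24 and RPL29, and 0 higher (3.84% and 2.09% of all genes it adjusted), and with the block 10 and 0 (6.71% and 6.28%). The 12 were RPL24, RPL29, RPSA, RPL32, RPL14, RPL15, RPL35A, RPL22L1, RPL26L1, RPL7L1, RPS7 and RPL41. They include 10 of the large and 2 of the small subunit. DESeq2 with the block left out RPL22L1 (DESeq2 adjusted p = 0.0773) and RPL41 (DESeq2 adjusted p = 0.0620). Without both libraries of replicate 1, 13 members were lower, among them all 12, and 6 were higher, RPL23A and RPLP1 among them (15.4% and 14.5% of all tested genes in that fit). Without replicate 2 or replicate 3 of both genotypes, 8 and 9 were lower and 0 higher (7.89% and 8.18% of all tested genes lower, 6.52% and 6.77% higher), and in each case 8 of the 12 kept the call. The calls lost without replicate 2 were those of RPL14, RPL15, RPL22L1 and RPL35A. Those lost without replicate 3 were of RPL15, RPL22L1, RPL35A and RPL41. Without replicate 1 the median over the members was -0.0026.

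**Figure D2:**
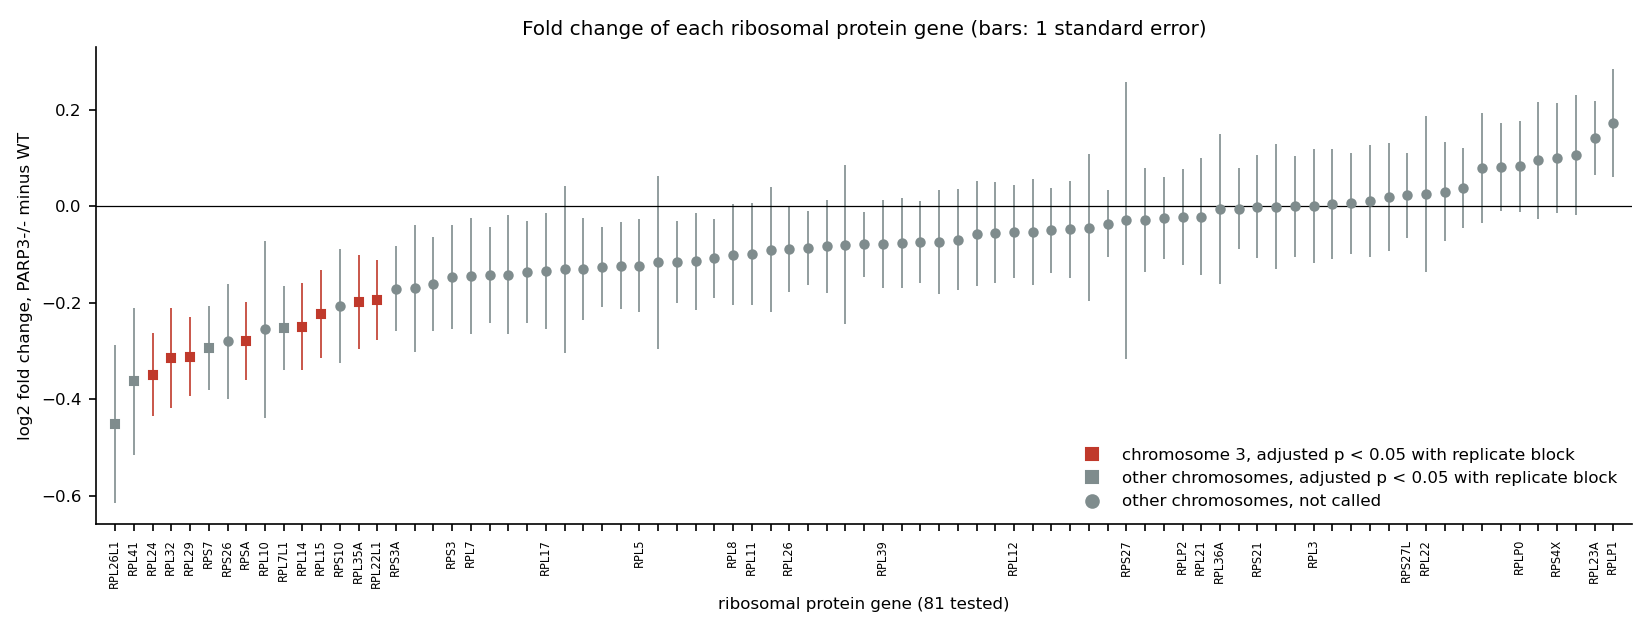
The log2 fold change (PARP3-/- minus WT, genotype as the only term) of each of the 81 tested ribosomal protein genes, ordered from the most negative; bars are 1 standard error, and only members named in the text carry their symbol. Red marks the 8 tested members of chromosome 3, squares mark the 12 called with the replicate block. The values run from -0.45 to 0.17, and all 8 members of chromosome 3 are among the 15 most negative.

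Of the 12 members called with the block, 8 lie on chromosome 3, and these are all of the chromosome's members that were tested; RPL39L, also there, was not. In each of them all 3 PARP3-/- libraries lay below all 3 WT libraries, a pattern that 18 of the 81 tested members (22.2%) and 12% of all tested genes showed. The opposite was seen in 1 member, RPL23A, and in 10.8% of all tested genes. Of the 8, RPL15, RPL22L1 and RPL35A lost the call without replicate 2 and also without replicate 3, and RPL14 lost it without replicate 2. With DESeq2 and the block RPL22L1 was not called. This grouping by chromosome was made after the values had been seen, so it is a description. PARP3 lies on the same chromosome (chr3:51942345-51948867, hg38).

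RPL24, a protein at the interface of the subunits that forms a bridge between them, was at 386, 374 and 344 CPM in the WT libraries and 278, 304 and 286 CPM in the PARP3-/- libraries. The gene (ENSG00000114391, chr3:101681091-101686782, minus strand) showed the largest difference on this chromosome (log2 fold change -0.35 ± 0.09 SE, edgeR adjusted p = 0.0785; with the block -0.35 ± 0.06, adjusted p = 0.00133). Every PARP3-/- library was under the lowest WT library.

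RPL29 (ENSG00000162244, chr3:51993600-51995942, minus strand) encodes a protein of the 60S subunit and lies 44.7 kb from PARP3, closer than any other member. It was at 233, 219 and 205 CPM in WT and at 175, 182 and 172 CPM in PARP3-/- (log2 fold change -0.31 ± 0.08 SE, edgeR adjusted p = 0.0944; with the block -0.31 ± 0.05, adjusted p = 0.00176). Here too the genotypes did not overlap.

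RPSA (ENSG00000168028, chr3:39406689-39412542, plus strand), a protein of the 40S subunit also known as the laminin receptor, was at 145, 130 and 131 CPM in WT and 107, 110 and 117 CPM in PARP3-/-. RPL32 (ENSG00000144713), a 60S protein, was at 724, 611 and 592 CPM in WT and 511, 528 and 511 CPM in PARP3-/-. The fold changes were -0.28 ± 0.08 and -0.31 ± 0.10 on the log2 scale (SE), with edgeR adjusted p-values of 0.127 and 0.185 without the block and 0.00614 and 0.0074 with it. In RPL32 the WT libraries spread more widely than the PARP3-/- libraries, with WT replicate 1 on top.

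The remaining 60S members of the chromosome differed less. RPL14 was at 281, 259 and 243 CPM in WT and 206, 229 and 223 CPM in PARP3-/- (log2 fold change -0.25). RPL15 was at 717, 648 and 647 CPM against 606, 564 and 555 CPM (-0.22). RPL35A was at 654, 587 and 558 CPM against 548, 500.0 and 520 CPM (-0.20). In RPL35A the gap between the lowest WT and the highest PARP3-/- library was small. Their edgeR adjusted p-values with the block were 0.0187, 0.0121 and 0.0281, against 0.222, 0.293 and 0.387 without it. RPL22L1, the paralog of RPL22, was at 85.4, 98.2 and 94.9 CPM in WT and 78.2, 80.3 and 84.8 CPM in PARP3-/- (-0.19; adjusted p = 0.308, and 0.0196 with the block). It differed from the others in that WT replicate 1 was its lowest WT library, which lay just above the highest PARP3-/- library.

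**Figure D3:**
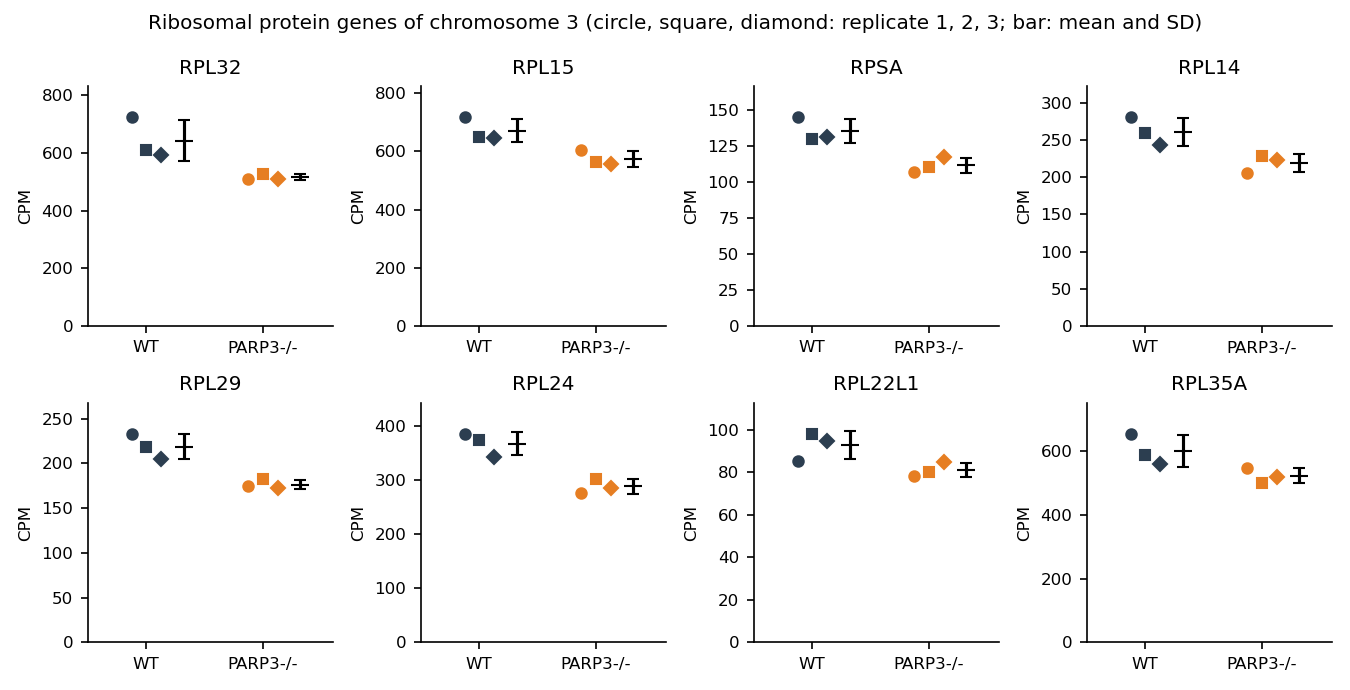
Depth-scaled counts (CPM) of the 8 tested ribosomal protein genes of chromosome 3 in each library, ordered by position; symbols mark the replicate number and black bars the mean and SD of 3 libraries. In each panel the 3 PARP3-/- libraries lie below the 3 WT libraries, in RPL24 at 278 to 304 against 344 to 386 CPM.

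Same-numbered libraries gave negative differences for all 8 in all 3 pairs, from -0.50 to -0.10 on the log2 scale. Over all members this held for 32 of the 81, and 2 members were higher in all 3 pairs, where 27.2% and 27.1% of all tested genes were. In pair 1, which holds WT replicate 1, 79 of the 81 members were lower, against 50.5% of all tested genes. In pairs 2 and 3 this held for 43 and 47 members, against 50.7% and 48.8%. In all 18 settings tried, with other scalings, filters, tools or libraries left out, the fold changes of the 8 stayed between -0.40 and -0.13. Of the other 942 tested genes of chromosome 3 the median was -0.13, 70.5% had a negative fold change, and with the block 290 (30.8%) were lower and 69 higher. The median of the 8 members was -0.26. Whether the chromosome's other genes and its ribosomal protein genes share a cause was not tested.

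Within 5 Mb on either side, the non-member genes around RPL29 had a median log2 fold change of -0.22 (147 genes), those around RPL24 of -0.26 (34 genes) and those around RPL32 of -0.24 (78 genes). Around RPSA, RPL14 and RPL15 the medians were -0.13, -0.15 and -0.14. The 2 tested members farthest from PARP3 had other surroundings, with a median of -0.01 around RPL35A (48 genes) and 0.07 around RPL22L1 (27 genes). All 8 members lay below the median of their surroundings (median difference -0.10). Over all 81 members the fold change of a member and the median of the genes within 5 Mb of it had a Spearman correlation of 0.60 (Pearson 0.77), and over the 73 members off chromosome 3 the Spearman correlation was 0.54. The points share the same 6 libraries and neighbouring members share surroundings, so the values are a description. Of the 81 members, 67 lay below the median of their surroundings, and the median difference over the 81 was -0.08, close to that on chromosome 3.

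**Figure D4:**
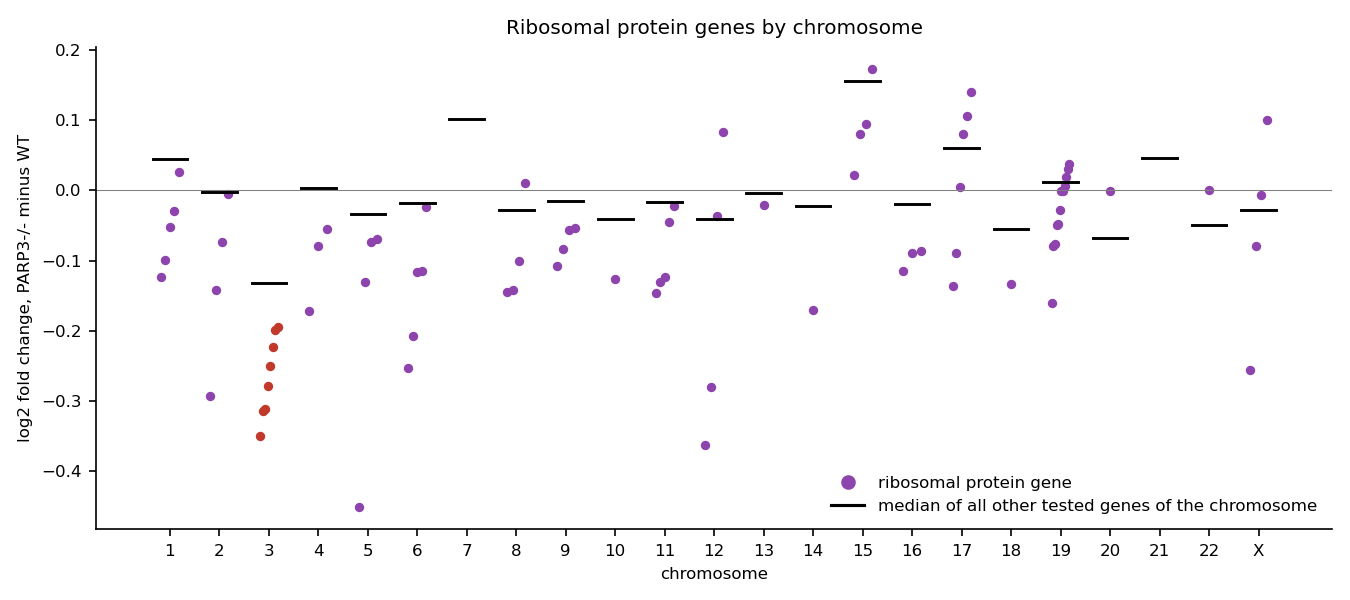
The log2 fold change (PARP3-/- minus WT) of each of the 81 tested ribosomal protein genes by chromosome, as dots, and the median of all other tested genes of that chromosome, as a black line. The 8 dots of chromosome 3 lie between -0.35 and -0.19 and the line at -0.13; the 4 dots of chromosome 15 lie between 0.02 and 0.17 and the line at 0.16.

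Off chromosome 3, 4 of 73 tested members (5.48%) were lower with the block, a smaller share than the 12.5% of all tested genes. RPL26L1, a near copy of RPL26 on chromosome 5 (ENSG00000037241), was at 13.5, 17.8 and 18.2 CPM in WT and 9.89, 13.2 and 13.0 CPM in PARP3-/-. It had the largest fold change of all members, -0.45 ± 0.16 SE without the block (edgeR adjusted p = 0.227) and -0.45 ± 0.07 with it (adjusted p = 0.000897). Replicate 1 was the lowest of both genotypes, so that the highest PARP3-/- library only just stayed under the lowest WT library, while the same-numbered pairs all differed. Genes within 5 Mb of it had a median of -0.20 (64 genes).

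RPL7L1 (ENSG00000146223, chromosome 6), a paralog of RPL7 with a role in ribosome assembly, was at 150, 174 and 164 CPM in WT and 129, 141 and 139 CPM in PARP3-/- (log2 fold change -0.25, edgeR adjusted p = 0.203, and 0.00349 with the block). RPS7 (ENSG00000171863, chromosome 2), a 40S protein that also binds MDM2 when it is free of ribosomes, was at 69.2, 61.1 and 57.9 CPM in WT and 49.9, 51.2 and 52.5 CPM in PARP3-/- (-0.29, adjusted p = 0.137, and 0.00788 with the block). Neither gene's libraries overlapped between the genotypes. The medians of the genes within 5 Mb were -0.02 around RPL7L1 and -0.11 around RPS7.

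RPL41, the smallest protein of the large subunit, is named here because of its call with the block, after its values had been seen. Its libraries overlapped, at 17.7, 12.1 and 14.5 CPM in WT and 12.4, 10.8 and 11.3 CPM in PARP3-/- (log2 fold change -0.36, edgeR adjusted p = 0.304, and 0.013 with the block). RPS26, a 40S protein near the exit of the mRNA channel, was separated at 7.18, 6.77 and 8.17 CPM against 6.17, 6.08 and 5.96 CPM, but missed the threshold in both fits (-0.28, adjusted p = 0.311 and 0.0723). Both are among the least counted tested members. They lie on chromosome 12, and the genes within 5 Mb had a median of -0.18 around RPL41 (162 genes) and -0.19 around RPS26 (164 genes).

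No member was called as higher with all 6 libraries. RPL23A, at the rim of the exit tunnel where it contacts the signal recognition particle, was the member whose PARP3-/- libraries all lay above the WT libraries, at 213, 223 and 220 CPM against 208, 198 and 188 CPM (log2 fold change 0.14, edgeR adjusted p = 0.454, and 0.0859 with the block). RPLP1, an acidic protein of the stalk that recruits translation factors, had the highest fold change, 0.17 ± 0.11 SE, with WT libraries at 437, 360 and 340 CPM and PARP3-/- libraries at 425, 423 and 435 CPM. WT replicate 1 lay above all 3 PARP3-/- libraries and the other WT libraries below them, and the adjusted p was 0.545 (0.0966 with the block). The members of chromosome 15, with RPLP1 and RPS27L among them, were all between 0.02 and 0.17, beside a median of 0.16 over the 590 other tested genes of the chromosome. The 6 members of chromosome 17 had a median of 0.04 and the 12 of chromosome 19 of -0.01, where the other genes stood at 0.06 and 0.01.

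The paralogs can be set beside their standard forms. Of the 4 tested paralogs 3 (75%) were lower with the block, RPL7L1, RPL22L1 and RPL26L1, where 12.5% of all tested genes were. RPL22L1 and RPL26L1 were lower with the block, whereas RPL22, at 104, 70.9 and 78.6 CPM in WT and 98.9, 80.3 and 78.5 CPM in PARP3-/-, and RPL26, at 585, 546 and 521 against 543, 497 and 513 CPM, passed neither fit. The log2 fold changes of RPL22 and RPL26 were 0.03 and -0.09. RPS27L, which p53 induces, had 214, 240 and 226 CPM in WT and 213, 234 and 243 CPM in PARP3-/-, and RPS27 8.82, 4.74 and 4.61 against 6.97, 4.76 and 6.09 CPM. Their fold changes were 0.02 and -0.03, with overlapping libraries in both. Values for the other standard forms were -0.14 for RPL7, 0.00 for RPL3, -0.26 for RPL10, -0.08 for RPL39 and 0.10 for RPS4X, none of them called in either fit. The difference between a paralog and its standard form was not tested. Per kilobase of exon, RPL22L1 had 45.3 CPM in WT and RPL22 18.1, and RPL26L1 14.2 against 222 for RPL26.

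By place in the ribosome, no list held a call in the fit with genotype alone. The 4 proteins of the P stalk (RPLP0, RPLP1, RPLP2 and RPL12), which bring elongation factors to the ribosome, had a median of 0.03 and no call with the block. RPL5 and RPL11, which with 5S rRNA form the particle that inhibits MDM2, stood at -0.12 and -0.10. The 8 proteins at the rim of the exit tunnel had a median of -0.08 and the 14 of the head of the 40S subunit of -0.04, both without a call in either fit. Of 20 genes in which mutations cause Diamond-Blackfan anaemia, an inherited failure of red cell production, the median was -0.12, and 3 (RPS7, RPL15 and RPL35A) were lower with the block, close to the 12.5% of all tested genes.

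Levels between members were compared per kilobase, as depth-scaled CPM divided by the length of the union of exons. In WT they began at 2.70 and had a median of 117. RPS21 (877 ± 88.0, SD, n = 3) and RPL8 (553 ± 42.7) were among the highest, and RPL21 (3.30 ± 0.220), RPL36A (2.76 ± 0.388) and RPS10 (2.70 ± 0.0601) lowest. In 72 of the 80 neighbouring pairs of the order the WT libraries overlapped. In PARP3-/- the order was nearly the same (Spearman 0.996 over the 81 members), with RPS10 at 2.34 ± 0.188. The choice of length moved single ranks: by the median transcript length that the authors' table gives, RPS3 moved from rank 9 to rank 1, and the Spearman correlation of the orders was 0.87.

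Low levels went with sequence shared with other places. Each member's main transcript was cut into windows of 50 bases, and the windows found nowhere else in the genome were counted. The share was 0% in RPL21, 1.83% in RPS3A, 4.95% in RPS27 and 5.38% in RPS10, and 99.0% in RPS21. The 27 tested members with less than 50% had a median WT level of 31.9 CPM per kilobase, the other 54 of 157 (Spearman 0.52 between share and level over the 81 members, which share the libraries, as a description). RPL39 went the other way, with a share of 6.16% and a WT level of 202 CPM per kilobase. RPS10 also shares 31.5% of its exon bases with the readthrough gene RPS10-NUDT3 on the same strand, and RPL17 32.9% with RPL17-C18orf32 and snoRNAs of its introns. RPL36A, with 50.8%, and RPS26, with 55.0%, were low without such a small share. Levels of these members are therefore uncertain, and so is the part of reads from copies elsewhere in their fold changes. Of the 12 members called with the block, 6 had less than 50%: RPL24, RPL29, RPSA, RPS7, RPL26L1 and RPL41. The median fold change was -0.11 over the 27 and -0.07 over the 54.

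**Figure D5:**
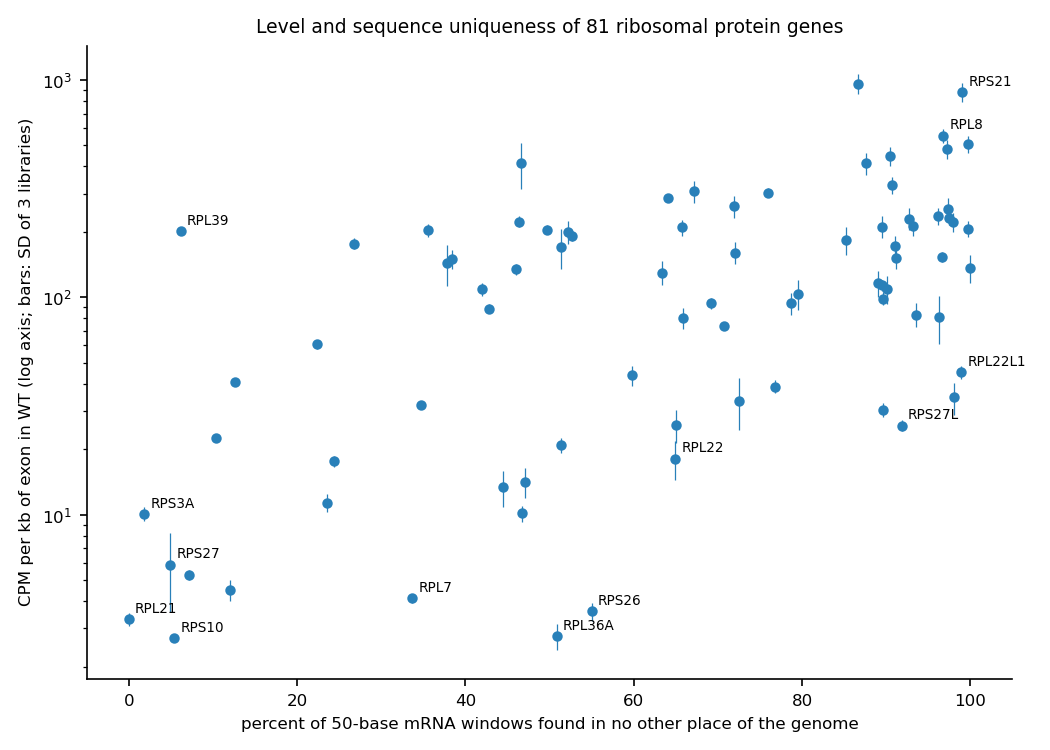
WT level of the 81 tested ribosomal protein genes in depth-scaled CPM per kilobase of exon (log axis; bars are the SD of 3 libraries) against the percent of 50-base windows of the main transcript found nowhere else in the genome. RPL21, RPS10, RPS27 and RPS3A, all under 6%, lie at 3.30, 2.70, 5.89 and 10.1, while RPS21, at 99.0%, lies at 877. RPL39, at 6.16%, lies at 202. Only members named in the text are labelled.

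The 799 ribosomal protein pseudogenes listed, of which 108 were tested, together took 0.0163% to 0.0205% of the gene counts. None was called with genotype alone. With the block 3 (2.78%) were lower and 1 (0.926%) was higher, fewer than the 12.5% and 11.8% of all tested genes. The higher one was RPLP0P6 (log2 fold change 0.44, edgeR adjusted p = 0.0433 with the block), whose parent gene RPLP0 stood at 0.08. Of the 20 small nucleolar RNAs listed inside introns of members, 13 were tested, in 10 host genes. All 13 had a negative fold change (median -0.35), all were below 3.65 CPM or at it, and 0 were called with genotype alone. With the block 1 was lower. Small nucleolar RNAs are poorly captured by libraries of fragmented RNA, and reads of the host's introns cannot be told apart from them.

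Genes that work with the ribosomal proteins gave the surroundings of these values. Counts with the block are to be read beside the 12.5% lower and 11.8% higher of all tested genes. Of the ribosome components outside the name rule, FAU, RPL36AL and RACK1 stood at -0.06, 0.01 and -0.17 on the log2 scale, without a call in either fit. Of 14 tested elongation factors and other TOP mRNA genes, the initiation factor EIF4B was lower (log2 fold change -0.27, edgeR adjusted p = 0.431, and 0.00779 with the block) and the histone chaperone NAP1L1 higher (0.35, adjusted p = 0.0649, and 0.000876 with the block). Of 37 ribosome assembly factors 0 were called with genotype alone, and 11 were lower and 4 higher with the block, with a median of -0.10. Among the lower were the H/ACA snoRNP protein NHP2 (-0.33), the nucleolar GTPase GNL3 (-0.33) and the 60S assembly factor NOP16 (-0.33), and among the higher EFL1, which releases EIF6 from the 60S subunit (0.23), RRP9 (0.32) and the H/ACA snoRNP protein NOP10 (0.19). In GNL3 all PARP3-/- libraries lay below all WT libraries, at 133 ± 4.66 against 167 ± 8.37 CPM (SD, n = 3 each). GNL3 lies on chromosome 3, as do MRPS25, described next, and RRP9, which was higher with the block.

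Of 17 genes of mTOR signalling and TOP mRNA control none passed with genotype alone. With the block MTOR was lower (log2 fold change -0.15, edgeR adjusted p = 0.0391) and its activator RHEB higher (0.25, adjusted p = 0.00501). Of 11 genes of the nucleolar stress response and of p53, only ZMAT3 was called, lower with the block (-0.25, adjusted p = 0.00863). Of 11 dedicated chaperones and importins IPO9 was higher with the block (0.19, adjusted p = 0.0207). The 78 proteins of the mitochondrial ribosome had a median of -0.07. MRPS25 was lower in both fits (53.2 ± 1.74 CPM in WT and 38.7 ± 1.78 in PARP3-/-, log2 fold change -0.46, edgeR adjusted p = 0.0162), and with the block 14 were lower and 4 higher. Of 25 tested snoRNA host genes SNHG15 was lower in both fits (24.1 ± 1.21 and 16.6 ± 0.996 CPM, -0.54, adjusted p = 0.0166), and with the block 8 were lower and 0 higher, with a median of -0.17.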

How the data were processed

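Total RNA depleted of ribosomal RNA was sequenced from 3 WT and 3 PARP3-/- LN229 cultures as stranded single-end reads of 50 bases. The sample labels name polyA RNA instead; the library protocol was followed here. According to the methods and the submitters' processing notes, the authors trimmed reads with cutadapt 1.10, removed reads on ribosomal RNA and spike-ins with Bowtie2 2.2.8, aligned to hg38 with STAR 2.5.3a and counted reads per Ensembl gene with HTSeq 0.6.1p1 in union mode. The deposited values used are these raw counts and, for an alternative length, the deposited median transcript length, a value of another kind. Another 12 columns of values per sample were not used, nor were the authors' DESeq2 1.16.1 fold changes, p-values and adjusted p-values of WT against PARP3-/- and their Gene Ontology table. HTSeq drops reads that match several places or genes, which lowers counts of genes with copies.

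Counts were tested in R 4.3.3 with edgeR 4.0.16 (quasi-likelihood, TMM, filterByExpr with a minimum count of 10, genotype as the only term), with Benjamini-Hochberg adjustment over all 17144 tested genes and a threshold of 0.05. A standard error is the absolute fold change divided by the square root of F. CPM are counts divided by library size times TMM factor. DESeq2 1.42.0, other scalings, other filters, a replicate block and each library left out were alternatives. Deviations from the genotype means correlated at 0.788, 0.680 and 0.383 for replicates 1, 2 and 3 of both genotypes (-0.765 to 0.575 for other pairs). PARP3-/- replicate 3 correlated more with WT replicate 2 (0.575) than with WT replicate 3 (0.383). WT replicate 3 and PARP3-/- replicate 2 stood at 0.367. These values set replicate 1 apart but do not settle the pairing of replicates 2 and 3. The numbers, which come from the sample titles, were taken to pair the samples, and the results with the block rest on that. No library was a copy of another: replicate counts differed by 4.12 to 105 times sampling noise (chi-square per degree of freedom). The scripts were tested on simulated data.

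Exons and transcripts came from GENCODE 44 and start sequences from RefSeq (GRCh38.p14), read with Python 3.11. The uniqueness windows were compared with the main chromosomes of hg38 on both strands, and windows across exon junctions count as found nowhere else if no processed copy holds them. Named were the paralogs and their standard forms, then, since no member was called, members by p with the block whose genotypes do not overlap, up to 24 in all, the 3 highest and 3 lowest per length, up to 3 called genes a list in each direction, and PARP3. RPL41, RPL23A, RPLP1, RPS3 and the members named for location or sequence were added after their values had been seen. Results on a few genes, among them 1 of the 3 highest per length, are not reported here. The members and lists were chosen with earlier results of these data known.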

Additional observations from a re-analysis of the deposited data

How the results depend on the processing

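The count of members lower in PARP3-/- was 0 with genotype alone, and stayed 0 under the other scalings and filters, under the stricter threshold and with any single library left out. It was 2 with DESeq2, 12 with the replicate block, 10 with DESeq2 and the block, and 10 at an unadjusted p under 0.05. With the block and both libraries of 1 replicate number left out, settings chosen after the data had been seen, 13 members were lower and 6 higher without replicate 1, 8 and 0 without replicate 2, and 9 and 0 without replicate 3. Of all tested genes 15.4%, 7.89% and 8.18% were lower and 14.5%, 6.52% and 6.77% higher in these fits. The median over the members ranged from -0.120 to -0.015 with single libraries left out, the latter without WT replicate 1. The mean share of counts ranged from 3.64% to 4.03% in WT and 3.60% to 3.71% in PARP3-/- with libraries left out, and no other denominator moved it beyond its SD. Signs turned in 4 members near 0, none of them called. RPL3 was at -0.028 with library totals alone, -0.0051 without a filter, -0.0075 at a mean count of at least 50 and -0.070 with the block without replicate 2. RPL22 was at -0.0012 with library totals alone and -0.034 with the block without replicate 2. RPS27 was at 0.011 with the block, 0.024 with DESeq2 and the block, and with the block 0.20 without replicate 1 and 0.017 without replicate 2. RPS27L was at -0.0040 with library totals alone and -0.015 with the block without replicate 3. With single libraries left out the values ranged from -0.069 to 0.11 for RPL3, -0.088 to 0.20 for RPL22, -0.19 to 0.34 for RPS27 and -0.019 to 0.076 for RPS27L. The cause of these changes was not tested. With 3 libraries per genotype and a median standard error of 0.10, differences of the size seen in most members were not detectable, and counting limits apply to the members with few unique windows.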
